A study of Sus scrofa with 21 samples.

Results

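The nuclear genes of oxidative phosphorylation were compared in whole blood of DD and LW pigs. Members were all genes whose array name began with NDUF, UQC, ATP5, COX4 to COX8 or COX10 to COX19, or was SDHA, SDHB, SDHC, SDHD, CYC1 or CYCS, whatever the letter case. They numbered 85 of the 14549 gene symbols on the array and comprised 74 subunits, 10 assembly factors and cytochrome c. A further gene, COX4NB, matched by spelling alone and was counted apart, since it is an older symbol of EMC8, a protein of the endoplasmic reticulum. COX6B and COX6B1 are an older and a current symbol of the same gene and were kept as the array gives them. The array carried 221 probes for these symbols. After the 25% of probes with the lowest mean were removed, 83 of the 85 members kept a probe and were tested. This filter did not require signal above background, and NDUFA10 was tested though not well above it on any array.

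DD pigs (SLAdd) are an inbred minipig line, homozygous at the SLA locus, the pig major histocompatibility complex, where they carry the haplotype Hp-4.4. LW pigs are Large White animals of commercial type and served as controls. All were 60 days old and received a standard diet ad libitum, with no other treatment. RNA of 10 DD pigs from 5 litters and 11 LW pigs from 6 litters was hybridized to 1-colour arrays, 1 array per pig, spread over 3 chips that each held both breeds. The breeds differ in their whole genetic background and herd, so no difference can be assigned to the SLA locus. In the RefSeq annotation of the pig assembly Sscrofa11.1, 69 of the members had a position, and 1 of them, NDUFB1, lies on chromosome 7, which holds SLA-1.

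Oxidative phosphorylation takes place in the inner mitochondrial membrane. Complex I (NADH dehydrogenase) and complex II (succinate dehydrogenase) pass electrons to ubiquinone, complex III passes them to cytochrome c, and complex IV reduces oxygen. Complexes I, III and IV pump protons, and complex V, the ATP synthase, uses the gradient to make ATP. A few core subunits are encoded by mitochondrial DNA, and all other subunits, together with the assembly factors that build the complexes, are encoded in the nucleus. In blood, lymphocytes, monocytes and platelets carry mitochondria, whereas erythrocytes lose them as they mature.

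Probes on this array were 60 bases long. The stretches below belong to the members on which the results turn, 5′ to 3′ as the array prints them. Those of COX8H, NDUFA7 and COX7C are the whole or the start of a run shared by a pair of probes of the gene, those of NDUFA12 and UQCR10 the first 30 bases of their only probe. The 2 SDHD stretches are the end of one probe and the start of the next, with capitals for the 14 bases they share.
COX8H: cgccgtcactgctccaggcagactggagac
NDUFA7: ggattccctctggggagaatgtgac
COX7C: ctcagcatactggatatgtttgtaaata
NDUFA12: taaattcaacgtgagtggcactccacagca
UQCR10: aatggcttcacctgacagactctttaactt
SDHD, probe higher in DD: ttaattcctaaggaaaGACTTTGTGGAAGA
SDHD, probe lower in DD: GACTTTGTGGAAGAgtaggcagtgtttcgt
The COX8H pair overlaps over 50 bases, the NDUFA7 pair over 25 and the COX7C pair over 28, so the probes of a pair measure nearly the same site.

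Nuclear oxidative phosphorylation genes were mostly a little lower in DD pigs. Of the 83 tested, 20 fell and 2 rose at an adjusted p below 0.05, and 61 passed in neither direction. Those that fell make up 24.1% of the members, while 12.4% of all 12346 genes tested fell, 11.1% rose and 23.5% did either. The sign of the difference was negative for 69 members (83.1%) and for 57.9% of all genes. Differences were small: the median log2 fold change (FC, DD minus LW) was -0.20 for the members and -0.07 for all genes, and the members ranged from -1.57 (COX8H) to 0.67 (UQCR10). The test was limma's moderated test with chip as a fixed effect and sow as a random effect, adjusted over all genes. Data were also simulated for the same pigs and chips, with independent noise for each gene and array. There, 92 of 100 genes changed by 1 on the log2 scale were recovered and 30 of 100 changed by 0.5. The simulation held no correlation between siblings or genes and no difference in array brightness, so it says nothing on these.

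**Figure D1:**
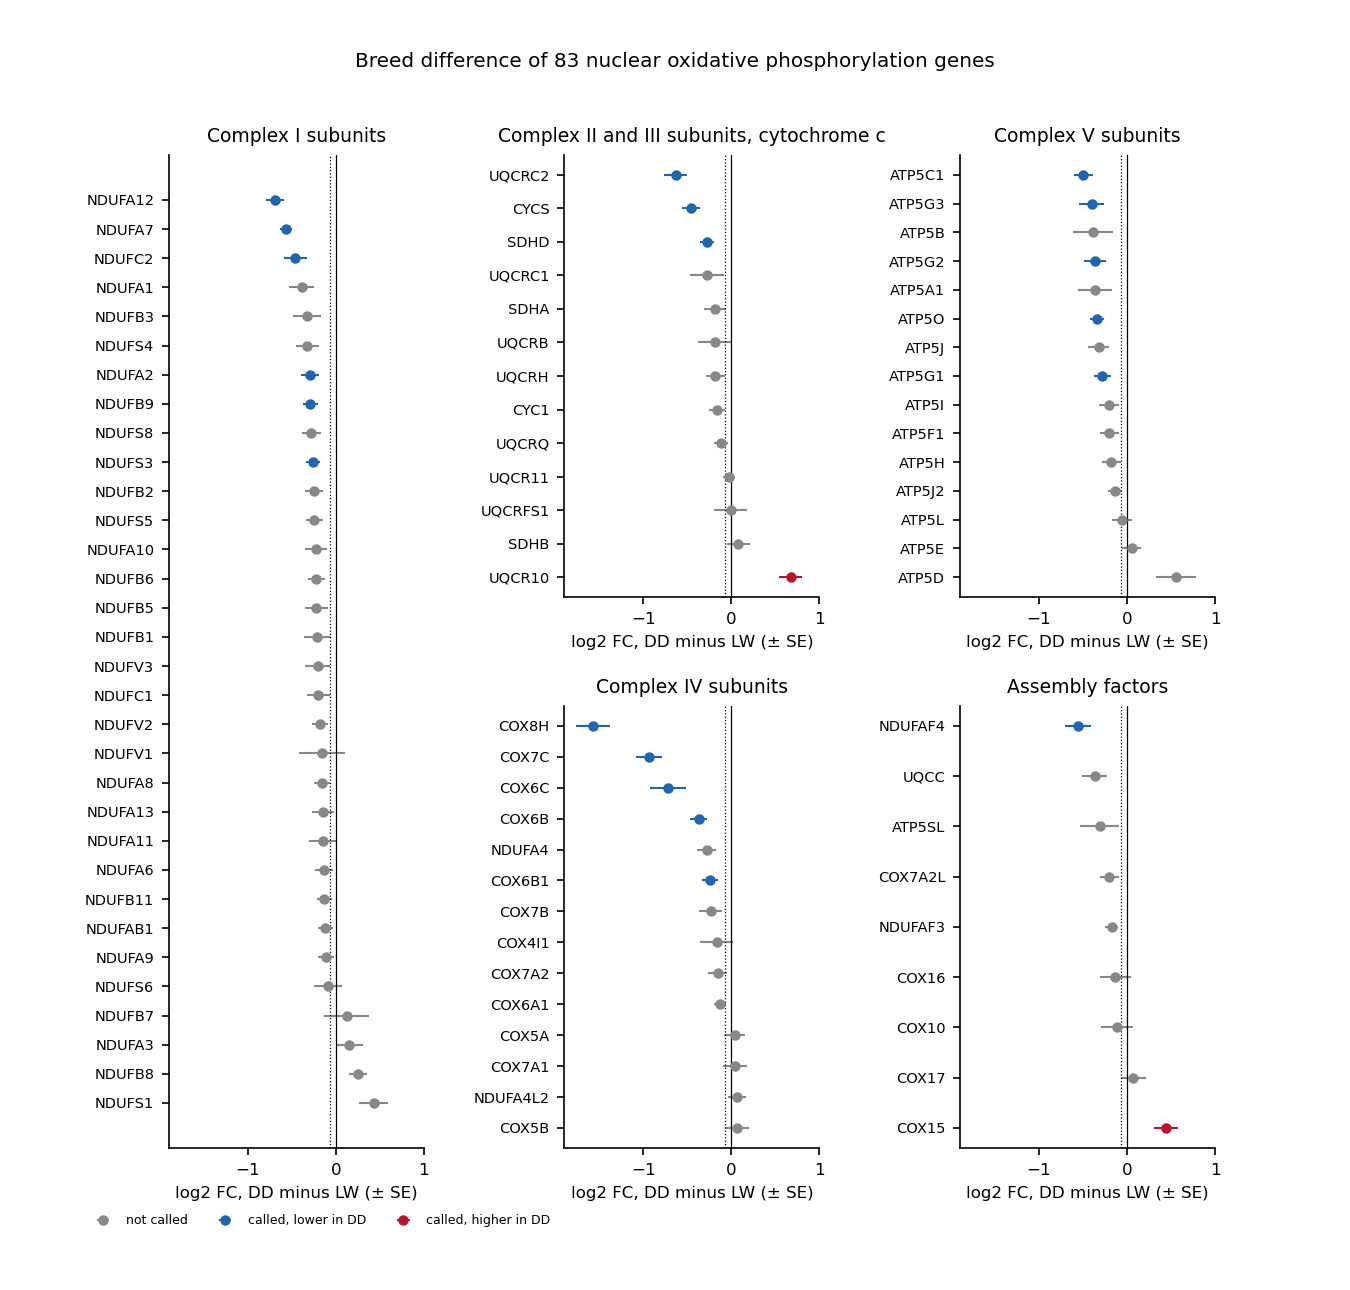
Log2 FC (DD minus LW, ± SE) of the 83 tested genes, in panels by complex and for assembly factors; blue and red mark genes lower and higher in DD pigs at an adjusted p below 0.05, grey the others, and the dotted line the median of all genes at -0.07. Most points lie left of 0 in every subunit panel, with COX8H at -1.57 and UQCR10 at 0.67 as the extremes.

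Differences of the breed means within each chip, which were not tested, were set beside array brightness. As brightness, each array's upper quartile of background-subtracted signal was used, on the log2 scale. DD arrays were dimmer, at 7.53 ± 0.54 (SD, n = 10) against 8.22 ± 0.38 (SD, n = 11) in LW pigs. The gap was small on chip 1 (7.95 and 8.03), larger on chip 2 (7.55 and 8.31) and largest on chip 3 (7.09 and 8.36). The median breed difference of the members followed the same order, at -0.08 on chip 1, -0.22 on chip 2 and -0.34 on chip 3. On chip 1, where the breed means of brightness were closest, 63 of the 83 members (75.9%) were lower in DD pigs. This compares with 51.9% of all genes, whose median was -0.01. The share of members lower did not follow the order of the medians, at 86.7% on chip 2 and 72.3% on chip 3. Of all genes, 58.1% and 55.8% were lower on these chips, with medians of -0.07 and -0.10. The DD mean on chip 1 covers unlike arrays, pig 06 at 8.49 and pigs 01 and 08 at 7.59 and 7.79. LW arrays of that chip ranged from 7.37 to 8.62. The mean level over the members was 0.13 in DD pig 06, and -0.05 and -0.06 in DD pigs 01 and 08. In all, 48 members (57.8%) were lower on each of the 3 chips, as were 28.6% of all genes. With brightness as a covariate, 3 members fell and 0 rose, the members' median was -0.10, and 156 genes fell and 104 rose among all genes. Without chip 3, 3 members fell and 1 rose, and 84 genes fell (0.68%) and 57 rose among all genes. That fit had fewer arrays and a correlation between siblings of 0.27, against -0.10 with all chips. COX8H, NDUFA7 and NDUFA12 were the 3 genes that fell in both cases, and these 3 passed under each of the 16 other settings tried and with each of the 21 pigs left out. The count of members that fell was 31 without DD pig 06, when 2594 of all genes fell, and 9 without LW pig 18, when 612 of all genes fell, and 12 fell and 3 rose with arrays scaled to their 75th percentile, a scaling under which 948 genes fell and 1671 rose among all genes and the medians were -0.13 for the members and 0.01 for all genes.

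**Figure D2:**
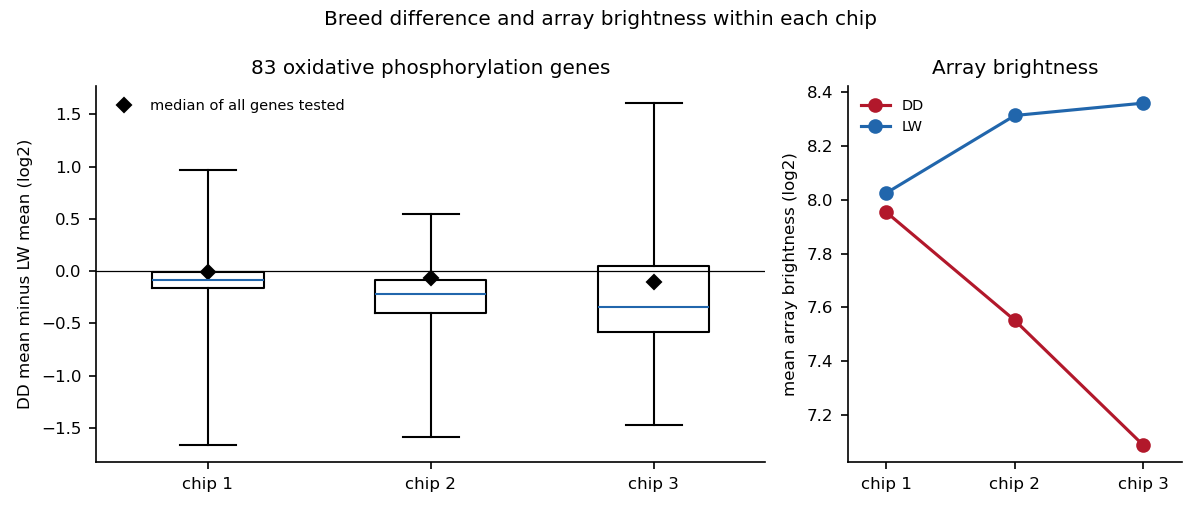
Left, difference between the DD and LW means (log2) of the 83 genes within each chip, as boxes with quartiles, median and full range, with diamonds for the median of all genes; right, mean array brightness (upper quartile of signal, log2) of each breed on each chip. The medians run from -0.08 to -0.34 over chips 1 to 3 while the brightness of the breeds draws apart.

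Markers of blood cell types were examined alongside, since fewer cells of a type and less RNA per cell cannot be told apart in whole blood. The tissue label was borne out by high signals of HBB (17.6 ± 0.45, SD, n = 10 DD pigs, and 17.4 ± 0.82, SD, n = 11 LW pigs, on the log2 scale). CD3E of T cells (10.9 and 11.3), MS4A1 of B cells (9.86 and 9.57), CD14 of monocytes (9.22 and 9.10), S100A8 of neutrophils (9.70 and 9.81) and PPBP of platelets (8.63 and 9.57) also gave signal, as breed means of DD and LW pigs on the log2 scale. Of 8 T cell markers tested, 2 fell (CD3D and CD3G, 25% against 12.4% of all genes) and 0 rose. All 8 had a negative sign, with a median of -0.19. For these markers the median was -0.07 on chip 1 and -0.04, with 0 called, when brightness was a covariate. Their mean level, relative to the average of all 21 pigs, ranged from -0.83 to 0.39 in DD and from -0.33 to 0.51 in LW pigs. Of 8 erythroid markers, 3 rose (ALAS2, CA1 and EPB42, 37.5% against 11.1% of all genes) and 0 fell. Of these markers 6 had a positive and 2 a negative sign, and the median was 0.38. It was 0.06 on chip 1 and -0.02, with 0 called, when brightness was a covariate. Their mean level ranged from -0.63 to 0.93 in DD and from -0.77 to 0.59 in LW pigs. Of the others, 1 of 6 monocyte markers fell and 1 rose (16.7% each), and 1 of 4 platelet markers fell (25%). In comparison, 12.4% of all genes fell and 11.1% rose. For neutrophils 0 of 6 and for B cells 0 of 5 markers passed. With brightness as a covariate, 1 platelet marker fell and 0 monocyte, neutrophil or B cell markers passed. The platelet median was then -0.66 against -0.10, and the B cell median 0.56 against 0.11. DD pigs 21 and 23, both on chip 3, had the lowest T cell levels (-0.83 and -0.80), the highest erythroid levels (0.93 and 0.67) and the lowest mean levels over the 83 members (-0.30 and -0.32). Their arrays were also the dimmest of all 21, with a brightness of 6.56 and 7.02. The part of cell composition in the differences was not tested.

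Within each complex the mean level per pig overlapped between the breeds. The mean over complex IV subunits was least mixed, with DD pigs from -0.41 to 0.07 (median -0.20) and LW pigs from 0.04 to 0.39 (median 0.12), relative to the average of all pigs. For complex I it ranged from -0.38 to 0.16 in DD and from -0.23 to 0.28 in LW pigs, for complex V from -0.35 to 0.10 and from -0.18 to 0.29, for complex III from -0.29 to 0.19 and from -0.24 to 0.39, and for complex II from -0.55 to 0.19 and from -0.46 to 0.38. Assembly factors ranged from -0.28 to 0.13 in DD and from -0.08 to 0.23 in LW pigs. The 3 DD pigs of chip 3 were the lowest DD pigs in complexes I, III and V.

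**Figure D3:**
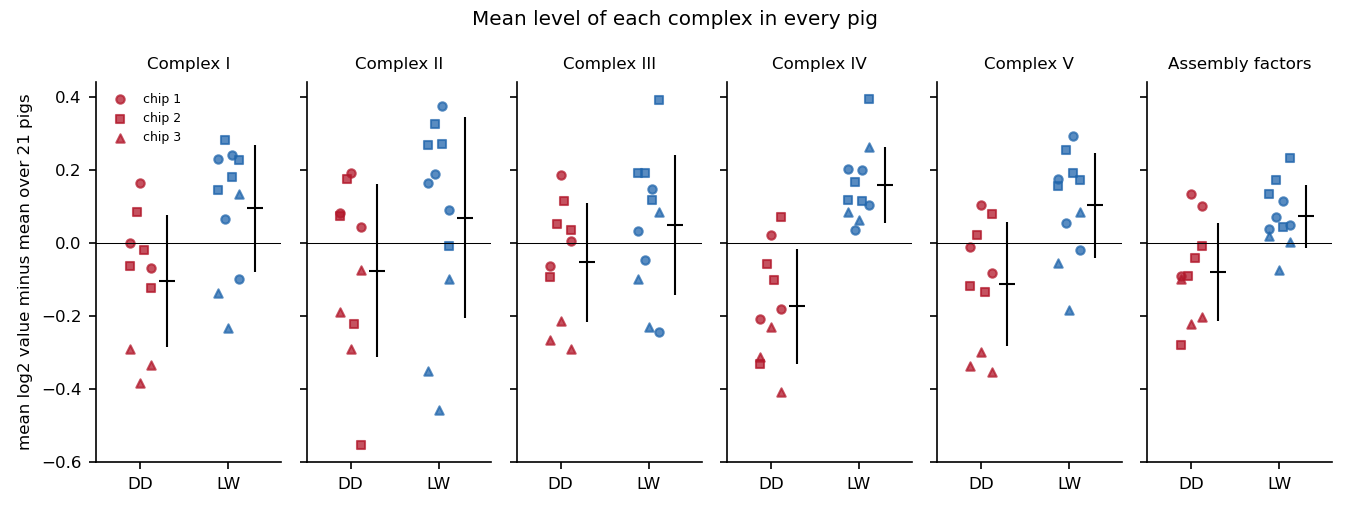
Mean level of the subunits of each complex and of the assembly factors in each pig, as the mean over genes of the log2 value minus the gene's mean over all 21 pigs; points are pigs, shapes are chips, and bars show the breed mean ± SD. Breeds overlap in every panel, least in complex IV, where LW pigs start at 0.04 and DD pigs end at 0.07.

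Complex I subunits fell in 6 of 32 cases (18.75%, against 12.4% of all genes) and rose in 0, with a median log2 FC of -0.21. NDUFA7, an accessory subunit at chr2:70954844-70961717 (Sscrofa11.1), ranged from 11.6 to 12.2 (median 11.9) on the log2 scale in DD and from 12.2 to 12.7 (median 12.5) in LW pigs. 9 of the 10 DD pigs lay below every LW pig, and the log2 FC was -0.57 ± 0.07 (SE, adjusted p = 2.88e-05). Its 2 probes gave -0.56 and -0.58. NDUFA12, an accessory subunit at chr5:88292760-88317111, ranged from 10.5 to 11.3 (median 10.9) in DD and from 11.1 to 12.0 (median 11.6) in LW pigs. 8 of the 10 DD pigs lay below every LW pig, with a log2 FC of -0.69 ± 0.10 (SE, adjusted p = 0.000207). The differences of NDUFA12 were -0.57, -0.72 and -0.81 on chips 1, 2 and 3, and those of NDUFA7 were -0.55, -0.48 and -0.71.

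NDUFC2, an accessory subunit of the membrane arm, ranged from 10.4 to 11.5 (median 10.9) in DD and from 10.9 to 11.7 (median 11.5) in LW pigs. Its log2 FC was -0.46 ± 0.13 (SE, adjusted p = 0.0188), and the difference on chip 1 was -0.22 against -0.88 on chip 3. NDUFA2 (-0.29), NDUFB9 (-0.29) and the core subunit NDUFS3 (-0.26) also fell. The call of NDUFA2 held in 9 of the 16 other settings and with 8 of the 21 pigs left out in turn, and its adjusted p was 0.0505 without the sow term. NDUFB9 rested on 1 of its 4 probes, which gave -0.62, while the others gave -0.31, -0.12 and -0.11. Among the 5 nuclear core subunits, which carry the flavin and iron-sulphur centres or hold them in place, 1 fell (20%). Among the 27 accessory subunits, which surround the core, 5 fell (18.5%). The medians of these classes were -0.18 and -0.21. NDUFS1, the core subunit with most iron-sulphur clusters, had the highest value of the complex, 0.43 ± 0.16 (SE), but missed the threshold (adjusted p = 0.0567) and differed by -0.04 on chip 1 and by 1.09 on chip 3. NDUFA10 was not well above background on any array, so no fold is given for it, and NDUFB1 was so on 1 LW array alone (-0.21, adjusted p = 0.329).

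Of the 3 tested assembly factors of complex I, 1 fell, NDUFAF4 (33.3%, against 12.4% of all genes). It ranged from 5.31 to 6.67 (median 5.65) in DD and from 5.89 to 6.61 (median 6.40) in LW pigs, and 7 DD pigs lay below every LW pig while 1 lay above all of them. The log2 FC was -0.56 ± 0.14 (SE, adjusted p = 0.0136), with -0.27 on chip 1 and -1.13 on chip 3. NDUFAF3 had -0.17 (adjusted p = 0.0768), the highest of the class, and ATP5SL -0.31 (adjusted p = 0.300). The only probe of NDUFAF1 was removed as dim and was well above background on 0 arrays.

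In complex II, 1 of 3 tested subunits fell (33.3%, against 12.4% of all genes). This was SDHD, a membrane anchor subunit, whereas SDHA, the flavoprotein, and SDHB, the iron-sulphur subunit, did not pass. SDHD ranged from 7.36 to 8.03 (median 7.72) in DD and from 7.78 to 8.39 (median 8.09) in LW pigs, with a log2 FC of -0.28 ± 0.08 (SE, adjusted p = 0.0203). This mean covers 7 probes that disagreed, the only member whose probes passed an unadjusted p of 0.05 in both directions. 5 probes were lower in DD pigs, from -0.39 to -0.77, 1 did not differ measurably (0.01 ± 0.09, SE), and 1 was higher by 0.57 ± 0.12 (SE, limma unadjusted p = 0.000111). The probe that was higher and a probe that was lower, at -0.39 ± 0.08 (SE), are the neighbours whose shared 14 bases are shown in capitals above. SDHB had a log2 FC of 0.08 (adjusted p = 0.673) that turned negative under 3 of the 16 other settings, and SDHA one of -0.19 (adjusted p = 0.279). A probe of SDHA has the same sequence as a probe named SDHAP3, so its signal can come from either. SDHC was not analysed here.

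In complex III, 1 of 9 subunits fell (11.1%, against 12.4% of all genes) and 1 rose (11.1%, as among all genes). The median was -0.16, or 0.01 with arrays scaled to their 75th percentile. UQCRC2, a core protein, ranged from 7.81 to 9.32 (median 8.64) in DD and from 8.34 to 9.78 (median 9.34) in LW pigs, so the breeds overlapped widely. Its log2 FC was -0.63 ± 0.13 (SE, adjusted p = 0.0037), with -0.78 at its brighter probe and -0.48 at the dimmer one. UQCR10, a small subunit at chr14:46783340-46786140, went the other way. It ranged from 13.6 to 14.7 (median 13.9) in DD and from 12.8 to 13.9 (median 13.4) in LW pigs, and 5 DD pigs lay above every LW pig. The log2 FC was 0.67 ± 0.13 (SE, adjusted p = 0.00231), and unlike the genes above it was largest on chip 1 (0.97) and smaller on chips 2 and 3 (0.55 and 0.51). With brightness as a covariate the log2 FC of UQCR10 was again 0.67, but its adjusted p was 0.0509. The other 7 subunits, among them CYC1 (cytochrome c1) and UQCRFS1 (the Rieske protein), had values from -0.28 to -0.01 and did not pass. UQCRFS1 was well above background on 1 array of each breed. Of the 8 probes of UQCRB, 7 gave -0.24 to -0.31 and 1 gave 0.44, which is named here because its probes disagreed. The assembly factor UQCC (now UQCC1) had -0.37 ± 0.14 (SE, adjusted p = 0.0648), with -0.03 on chip 1 and -0.93 on chip 3. A probe of UQCC and one of UQCRC1 also appear on the array under other names.

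CYCS, cytochrome c, carries electrons from complex III to complex IV and fell. It ranged from 7.62 to 8.41 (median 7.92) in DD and from 7.99 to 8.64 (median 8.51) in LW pigs, with 6 DD pigs below every LW pig. The log2 FC was -0.46 ± 0.11 (SE, adjusted p = 0.00686), and the chips gave -0.18, -0.41 and -0.84. All 14 of its probes were lower in DD pigs, from -0.07 to -1.17.

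Complex IV held the largest differences. Of 14 tested subunits, 5 fell (35.7%, against 12.4% of all genes) and 0 rose, with a median of -0.20. COX8H, the heart and muscle form of subunit VIII at chr2:69199-70730, ranged from 3.76 to 4.56 (median 4.17) in DD and from 4.60 to 6.77 (median 5.57) in LW pigs. The breeds did not overlap, which was seen for no other member and for 0.211% of all genes in this direction. The fitted log2 FC was -1.57 ± 0.19 (SE, adjusted p = 2.36e-05). Neither of its probes was well above background on any DD array, while both were on 10 of the 11 LW arrays. In the deposited values COX8H was therefore at least 2.78-fold lower in DD pigs. The value is a bound, taken against the higher of each DD array's lowest signal well above background and the probe's own signal. It holds for this background correction only. With a normexp offset of 50 the log2 FC was -0.63, and under 75th-percentile scaling it was -2.46. The call passed in both, but the size of the fold depends on the processing. The differences were -1.67, -1.58 and -1.46 on chips 1, 2 and 3, and with brightness as a covariate the log2 FC was -1.84.

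COX7C, a small nuclear subunit of the membrane part at chr2:94345436-94347709, ranged from 10.73 to 12.01 (median 11.24) in DD and from 11.8 to 12.6 (median 12.3) in LW pigs. 9 of 10 DD pigs lay below every LW pig, and the log2 FC was -0.94 ± 0.15 (SE, adjusted p = 0.000432). Its 3 kept probes gave -0.84, -0.91 and -1.07, and the chips -0.57, -0.85 and -1.47. COX6C, also a small membrane subunit, ranged from 10.4 to 12.4 (median 11.2) in DD and from 11.4 to 12.4 (median 12.1) in LW pigs, so the highest pigs of both breeds were level. Its log2 FC was -0.72 ± 0.21 (SE, adjusted p = 0.0204), its 5 probes lay between -0.69 and -0.77, and the chips gave -0.32, -0.55 and -1.42. COX6B (-0.37) and COX6B1 (-0.24), the names of the subunit that joins the monomers of the dimer, both fell. COX6B1 passed narrowly (adjusted p = 0.0482, or 0.0622 without the sow term), and its call held in 8 of 16 other settings and with 4 of 21 pigs left out. COX5B, with 0.06 (adjusted p = 0.749), was the highest subunit of complex IV, and its sign turned under 2 other settings. A pair of its 4 probes was laid out in opposite orientation over at least 16 bases, so at least 1 of them is not in the direction of the message. COX7A1 and NDUFA4L2, isoforms known from muscle and from hypoxic or vascular cells, had 0.04 and 0.06 and did not pass, and the lung isoform COX4I2 was removed as dim. COX6A1 did not pass as a mean of 8 probes (-0.13) and is named here because these disagreed. Of them, 5 gave -0.04 to -0.08, while 1 equally bright probe gave -0.45. The remaining probes, which were dimmer, gave -0.55 and 0.27.

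Of the 5 assembly factors of complex IV, 0 fell (against 12.4% of all genes) and 1 rose (20%, against 11.1%), and 3 had a negative sign. COX15, which makes haem A, ranged from 10.8 to 11.9 (median 11.2) in DD and from 10.2 to 11.6 (median 10.8) in LW pigs, overlapping over most of the range. The log2 FC was 0.45 ± 0.13 (SE, adjusted p = 0.0252), from 0.05 on chip 1 to 0.90 on chip 3, and 0.04 (adjusted p = 0.969) with brightness as a covariate. A bright probe gave 0.73 and a dim one 0.16. COX7A2L, a factor of respiratory supercomplexes, was lowest at -0.20 (adjusted p = 0.164). The difference between subunits and assembly factors was not tested, and over all complexes their medians were -0.20 (73 tested) and -0.17 (9 tested). Of the subunits 18 fell (24.7%) and 1 rose (1.37%). Of the assembly factors 1 fell and 1 rose (11.1% each), near the shares of all genes (12.4% and 11.1%).

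**Figure D4:**
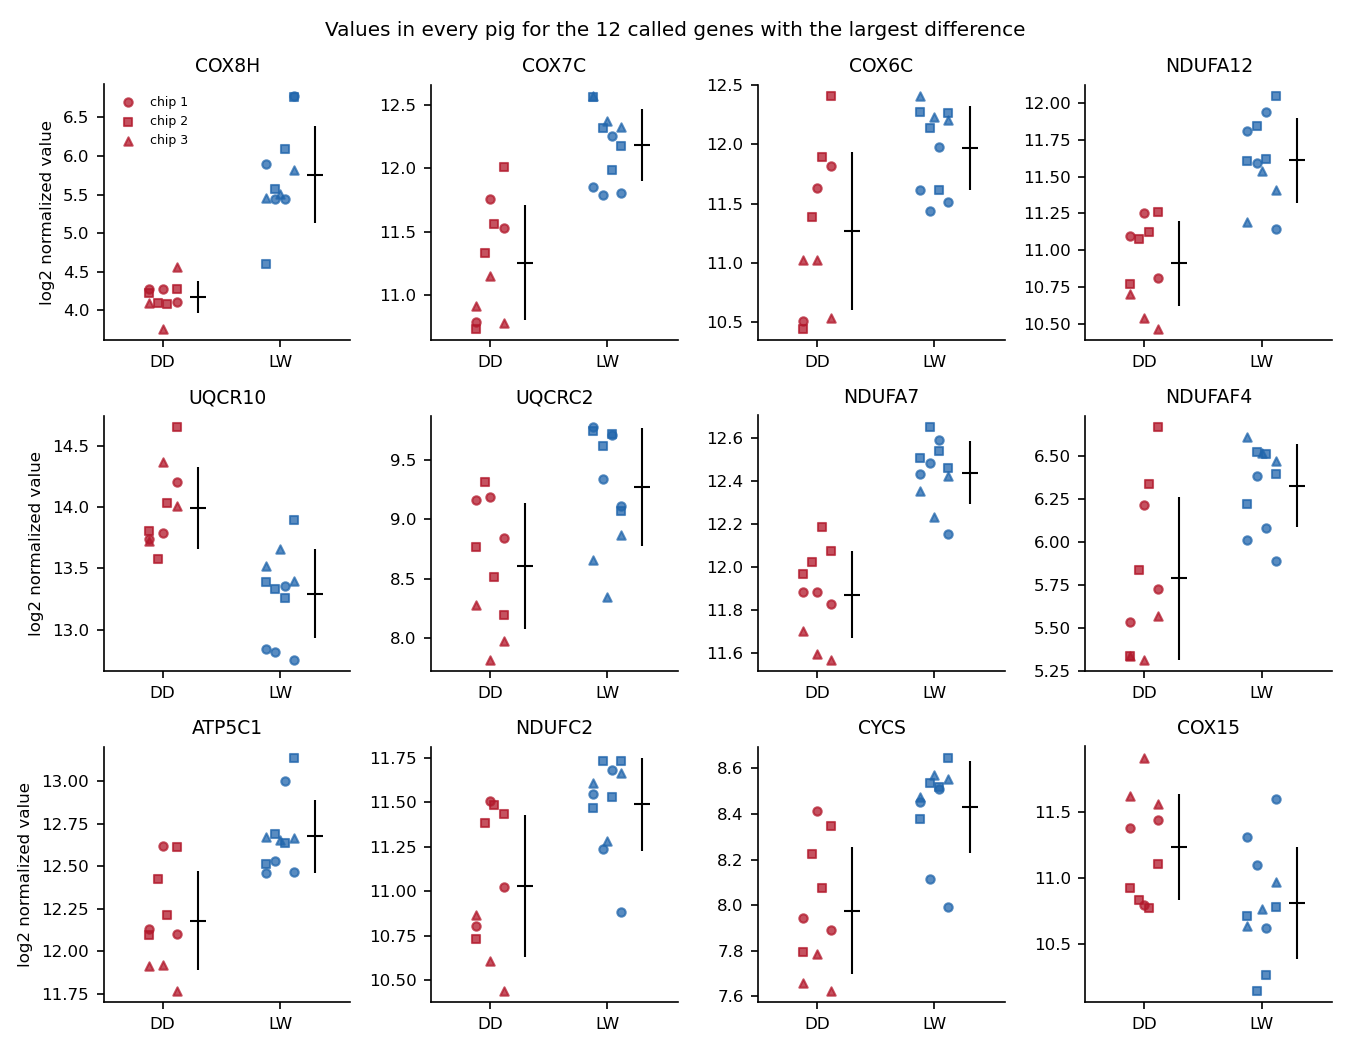
Log2 normalized values in each of the 10 DD and 11 LW pigs for the 12 genes with the largest difference among those past the threshold; shapes mark chips, bars the breed mean ± SD. Breeds are apart only for COX8H, 9 of 10 DD pigs lie below all LW pigs for COX7C and NDUFA7, and UQCR10 and COX15 run the other way.

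In complex V, 5 of 15 tested subunits fell (33.3%, against 12.4% of all genes) while 0 rose, and the median was -0.28. This was the lowest median of the complexes, but complex II was lowest with the brightest probe per gene (-0.32) and without chip 3 (-0.28), complex I under 75th-percentile scaling (-0.17) and complex IV with brightness as a covariate (-0.16). ATP5C1, the rotating gamma subunit, ranged from 11.8 to 12.6 (median 12.1) in DD and from 12.5 to 13.1 (median 12.7) in LW pigs, with 8 DD pigs below every LW pig. Its log2 FC was -0.50 ± 0.11 (SE, adjusted p = 0.0046), and the chips gave -0.33, -0.41 and -0.80. ATP5O, a subunit of the peripheral stalk, fell by 0.35 on the log2 scale (SE 0.08, adjusted p = 0.00699) with nearly the same difference on each chip (-0.31, -0.35 and -0.38). The 3 genes that encode the identical subunit c of the membrane ring, ATP5G1 (-0.28), ATP5G2 (-0.36) and ATP5G3 (-0.40), all fell, with adjusted p from 0.0366 to 0.0457. These calls were fragile: without the sow term the adjusted p was 0.0656, 0.0555 and 0.0580, they were also lost without the filter on dim probes, under 75th-percentile scaling and without chip 3, and they held with 5, 11 and 7 of the 21 pigs left out. The catalytic beta subunit ATP5B (-0.39, adjusted p = 0.208) and the alpha subunit ATP5A1 (-0.36, adjusted p = 0.164) did not pass as means of 10 and 15 probes. All of these probes were lower in DD pigs, and 7 of the 15 for ATP5A1 and 5 of the 10 for ATP5B passed an unadjusted p of 0.05. ATP5D, the delta subunit of the central stalk, was highest at 0.55 ± 0.22 (SE, adjusted p = 0.0748), with 0.03 on chip 1 and 1.61 on chip 3. This value rests on 1 probe. With probes named through RefSeq added, the log2 FC of ATP5D was 0.19 (adjusted p = 0.319). ATP5E, the epsilon subunit that binds ATP5D, had 0.05 (adjusted p = 0.746).

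**Figure D5:**
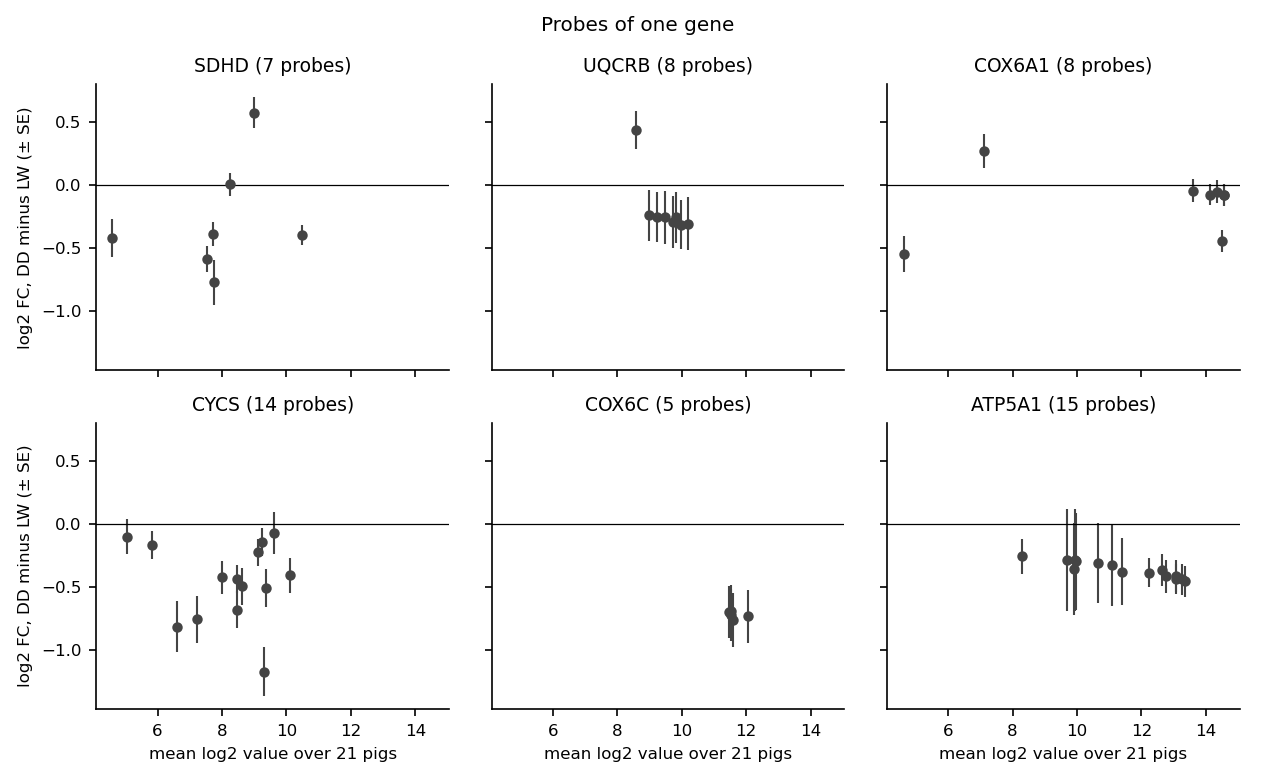
Log2 FC (DD minus LW, ± SE) of each kept probe of 6 genes against its mean log2 value over the 21 pigs. Probes of COX6C and ATP5A1 lie together, whereas 1 probe of SDHD (0.57) and 1 of UQCRB (0.44) lie above 0 and the others of these genes at or below it. Probes of COX6A1 lie on both sides of 0, from -0.55 to 0.27.

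Where a member had 2 or more kept probes (43 genes), all of its probes had the same sign in 32. The other 40 tested members rest on 1 probe each, NDUFA12, UQCR10, NDUFAF4, ATP5C1, ATP5D and ATP5O among them.

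Related genes outside the name pattern, from lists made with earlier results of these data known, were set beside the members. Of 17 further assembly and translation factors, 3 fell (SCO1, -0.65, TMEM126B, -0.29, and TMEM70, -0.26) and 0 rose, with a median of -0.19. SCO1 delivers copper to complex IV, and TMEM126B and TMEM70 help to assemble complexes I and V. Of 6 carriers and porins, which exchange ADP, ATP and phosphate across the mitochondrial membranes, the adenine nucleotide carriers SLC25A4 (-0.48) and SLC25A6 (-0.47) fell and 0 rose. Of 7 regulators of mitochondrial biogenesis, TFAM (-0.46), which packages and transcribes mitochondrial DNA, and GABPB1 (-0.30) fell, while PPRC1 (0.56) and TFB1M (0.31) rose. The shares that fell were 17.65% of the factors, 33.3% of the carriers and 28.6% of the regulators, against 12.4% of all genes. Of the regulators 28.6% rose, against 11.1% of all genes. With brightness as a covariate 0 genes of these 3 lists passed, the median of the factors was -0.06 against -0.19, and that of the regulators was 0.10 against -0.10. The genes encoded by mitochondrial DNA ran the other way from the nuclear members. All 14 of their tested entries on the array had a positive sign, with a median of 0.75. Of these entries 12 rose (85.7%, against 11.1% of all genes) and 0 fell. ATP6 and MT-ATP6 among them are names of the same gene. By chip, the median of the entries came to 0.30, 1.04 and 0.88. With brightness as a covariate 2 entries rose, 0 had a negative sign and the median was 0.54.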

How the data were processed

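Arrays of 10 DD and 11 LW pigs were analysed, 24 having been hybridized and 3 removed as outliers by the authors, who also noted a technical bias of the third chip. Scanner files, made with Agilent Feature Extraction 10.7.3.1 per the labels, hold intensity values as deposited. The deposited log2 matrix had been background corrected (normexp) and quantile normalized by the authors, and gave all main values, its columns being checked against the scanner files. Controls and the 25% of probes with the lowest mean were removed, and probes of 1 gene symbol averaged. The number of arrays limits the precision. Breed, chip (fixed) and sow (random, duplicateCorrelation) were fitted in limma, with Benjamini-Hochberg adjustment over 12346 genes. P-values measure the spread between these pigs. Litter and chip came from the study's animal list.

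Named genes were those past the threshold, the highest and lowest of each complex and class, those with probes called in both directions, and those removed as dim, with values per pig for the 12 largest. UQCRB, COX6A1, ATP5A1, ATP5B, ATP5E, ATP5SL, SDHA, NDUFA10, NDUFB1, COX7A1, NDUFA4L2, CYC1, UQCRC1 and UQCRFS1 were added after their values were seen. Members and lists were chosen with earlier results of these data known. On simulated data with independent noise the fit made 0 calls when no gene was changed. This does not show how many calls a difference in array brightness would bring. Alternatives were other background corrections, scalings, filters, probe rules, names and models, and each chip or pig left out. Exact letter case of the names was an alternative chosen after seeing the data. No genome sequence was used, so where a probe lies in its gene, and what else it may bind, was not analysed here. Tools were R 4.3.3, limma 3.58.1, statmod 1.5.0, data.table (1.17.8), Python 3.11.15, pandas 2.3.3 and matplotlib 3.10.9.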

Additional observations from a re-analysis of the deposited data

How the results depend on the processing

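The count of members lower in DD pigs (20) was within 1.5 times of the main value under 12 of 16 settings. It was 12 with the processed signal scaled to the 75th percentile, 8 without a chip term, 3 without chip 3 and 3 with brightness as a covariate. The share of all genes that fell was 12.4% and moved in the same direction, to 7.68%, 4.26%, 0.68% and 1.26%. The count of members higher (2) was 1 without a chip term, 1 without chip 3 and 0 with brightness as a covariate. With single pigs left out, members lower ranged from 9 (without LW pig 18) to 31 (without DD pig 06), with 4.96% and 21% of all genes, and members higher from 1 (without DD pig 19 or 21 or LW pig 18 or 22) to 4 (without DD pig 06 or LW pig 15). Medians of all members, all subunits, complex I and complex II stayed negative and moved by less than the SD between pigs under the 16 settings, a wide margin: complex I went from -0.21 to -0.0976 with brightness as a covariate, and complex II from -0.19 to -0.0330 without chip 2 and to -0.0957 without DD pig 16. The median of complex III was 0.0131 with 75th-percentile scaling, against -0.16, and that of complex IV was -0.0701 and of complex V -0.0927 under the same scaling. With brightness as a covariate the median of complex V was -0.12 and that of assembly factors -0.0369. The cause of these shifts was not tested. Of single genes, COX5B turned to -0.0518 and SDHB to -0.0876 with the brightest probe, to -0.12 and -0.20 without chip 3, and with brightness as a covariate NDUFS1 turned to -0.10, SDHB to -0.0875 and UQCC to 0.0124, none of them past the threshold. Of the 22 calls, 10 held with every pig left out and 3 (COX8H, NDUFA7 and NDUFA12) also under all settings. With only exact capitals in the names, 16 members fell and 2 rose. The consensus correlation between siblings was -0.10, and 15 members and 9.23% of all genes fell without the sow term, while without chip 3 the correlation was 0.27. No paired analysis was possible because the breeds share no replicate numbers. Low signal limits NDUFA10, NDUFB1 and UQCRFS1, which were well above background on at most 1 array of each breed.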
